A study of Mus musculus with 2 samples.

Results

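The regions described here are the accessible chromatin peaks of mouse spleen that were called in the scFFPE-ATAC library made without density gradient centrifugation and that had no counterpart in the library made with a 50 µL Tn5 reaction. They were chosen by overlap of the measured peaks: a peak without gradient centrifugation was kept when no peak of the 50 µL list covered even 1 bp of it. Of the 25343 peaks called without gradient centrifugation, 1203 met this rule (4.75%), and they are called unmatched peaks here. The number rests on the definition of a counterpart: it was 8004 when the 50 µL list was limited to its 25343 most significant peaks and 11596 when a counterpart had to overlap reciprocally by 50%. The other 24140 peaks, called shared peaks, overlapped at least 1 of the 89382 peaks of the 50 µL list.

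Both libraries came from formalin-fixed paraffin-embedded (FFPE) spleen. According to the methods, the spleens were from C57BL/6J mice aged 8 weeks and were fixed for 16 h. For 1 library the gradient that separates nuclei from cell debris was left out. For the other the tagmentation volume was lowered from the 100 µL of the standard protocol to 50 µL. For mouse FFPE spleen without the gradient, the paper reported weaker enrichment at TSSs, more duplicates and fewer reads in peaks than with it. It also reported that cell types could not be told apart clearly in that condition. Whether the 50 µL library had gradient-purified nuclei, and which volume the library without gradient centrifugation was tagmented in, were not stated in the labels of these samples. The labels also did not say whether the libraries came from the same animal. There was 1 library per condition, so purification, reaction volume, animal and sequencing depth cannot be told apart, and no significance test was made. The peak lists give neither reads nor cells, so the depth behind each peak was not used here. Shares carry exact (Clopper-Pearson) 95% intervals and medians carry exact order-statistic intervals, and both cover counting error only. As a check of the tissue, Ms4a1 and Cd79b of 6 B cell markers, Cd3d and Lck of 6 T cell markers and Spic of 6 myeloid markers had a promoter peak without gradient centrifugation, as did the muscle gene Ckm of 4 markers of other tissues. None of those promoter peaks was unmatched.

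In ATAC-seq the Tn5 transposase inserts adapters into DNA that is not wrapped in nucleosomes, and pileups of insertions mark promoters, enhancers and insulators. Promoters of widely used genes are open in most cells and carry CpG-rich sequence bound by ETS, SP/KLF and CRE-binding factors. Enhancers are open in the cells that use them, and insulator sites bound by the zinc finger protein CTCF are open in most cell types and often lie far from genes. A region can also collect reads because its sequence has many copies in the genome.

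Unmatched peaks from the top of the list by −log10 q are shown by their sequence because they are among the strongest calls that the larger list lacked. Each line gives the gene with the nearest TSS, the position on mm10 (GRCm38) and the 200 bp around the summit on the plus strand, 5′ to 3′, with the 31 bases at the summit in capitals.

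Gm13273, chr4:88696647-88696846: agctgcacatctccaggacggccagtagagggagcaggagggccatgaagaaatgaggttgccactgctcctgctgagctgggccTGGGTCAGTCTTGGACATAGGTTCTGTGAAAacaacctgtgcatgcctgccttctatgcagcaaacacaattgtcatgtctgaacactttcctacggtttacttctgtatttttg

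Gm44355, chr9:75922064-75922263: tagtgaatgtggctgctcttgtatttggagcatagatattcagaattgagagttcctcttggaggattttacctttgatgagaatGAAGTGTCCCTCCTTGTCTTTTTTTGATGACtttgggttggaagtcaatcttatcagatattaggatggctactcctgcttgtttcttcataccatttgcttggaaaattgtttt

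H2-M10.5, chr17:36788991-36789190: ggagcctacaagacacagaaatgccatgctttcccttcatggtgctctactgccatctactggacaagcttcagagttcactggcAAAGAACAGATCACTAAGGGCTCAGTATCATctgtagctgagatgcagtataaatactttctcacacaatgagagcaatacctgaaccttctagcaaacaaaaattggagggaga

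Arid5b, chr10:68283258-68283457: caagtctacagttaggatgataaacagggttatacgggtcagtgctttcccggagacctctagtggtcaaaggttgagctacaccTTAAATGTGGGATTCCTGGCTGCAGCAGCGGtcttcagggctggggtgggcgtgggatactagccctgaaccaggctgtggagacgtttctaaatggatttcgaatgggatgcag

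Gm37596, chr3:93699861-93700060: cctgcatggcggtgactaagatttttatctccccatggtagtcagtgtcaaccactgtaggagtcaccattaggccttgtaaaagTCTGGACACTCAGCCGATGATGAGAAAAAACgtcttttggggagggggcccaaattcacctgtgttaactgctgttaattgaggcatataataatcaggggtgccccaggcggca

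The summit 31-mers next to Gm13273, H2-M10.5 and Arid5b occurred once in the reference. The 31-mer next to Gm44355 had 6 further copies and that next to Gm37596 had 1, and both of these windows were soft-masked as repeats over their whole length. The strongest unmatched peaks thus held both summit 31-mers that occurred once and repeats. Only exact matches were counted, so similar copies of a sequence were not searched.

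A further set carried a CTCF-like motif, and its 4 members with the highest −log10 q are shown with the motif in capitals (same build, strand and window).

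Adk, chr14:21137060-21137259: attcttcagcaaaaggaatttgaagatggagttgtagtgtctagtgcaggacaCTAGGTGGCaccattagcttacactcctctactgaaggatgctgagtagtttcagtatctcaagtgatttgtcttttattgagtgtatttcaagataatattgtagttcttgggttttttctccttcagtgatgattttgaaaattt

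Rpl7a-ps1, chr12:64897508-64897707: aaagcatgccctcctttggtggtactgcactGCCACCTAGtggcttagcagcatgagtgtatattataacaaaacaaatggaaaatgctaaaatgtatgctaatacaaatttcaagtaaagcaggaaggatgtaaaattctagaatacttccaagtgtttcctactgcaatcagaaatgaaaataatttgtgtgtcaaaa

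Pdzd9, chr7:120670290-120670489: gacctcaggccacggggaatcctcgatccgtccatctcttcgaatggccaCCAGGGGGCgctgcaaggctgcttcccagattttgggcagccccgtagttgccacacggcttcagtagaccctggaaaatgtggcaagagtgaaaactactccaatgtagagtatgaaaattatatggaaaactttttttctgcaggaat

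Tnip2, chr5:34518090-34518289: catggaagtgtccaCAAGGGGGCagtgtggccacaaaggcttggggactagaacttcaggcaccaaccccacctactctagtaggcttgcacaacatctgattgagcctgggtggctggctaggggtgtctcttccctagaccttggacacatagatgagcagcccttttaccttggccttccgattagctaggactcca

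The peak in an intron of Adk (adenosine kinase) lay 60914 bp from the nearest TSS and the peak next to the pseudogene Rpl7a-ps1 lay 19674 bp from it. The peak at Pdzd9 reached the TSS, and the peak next to Tnip2 lay 4049 bp from the nearest TSS. These 4 had a fold enrichment over background of 8.96, 7.71, 7.32 and 5.21, respectively, and none of their summit 31-mers occurred elsewhere.

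The strength of the unmatched peaks is given as a description only, since the same peak calls chose them. Their median fold enrichment was 4.69 (lowest 2.67, highest 9.84) and their median −log10 q was 7.45 (lowest 2.23, highest 25.6), as MACS2 gave them. Their median width was 229 bp against 303 bp for shared peaks, and 188 of the 1203 (15.6%) had a width of 200 bp, the smallest in the list, against 4.69% of shared peaks. Unmatched peaks made up 11.3% of the 1768 peaks with a −log10 q of 2 to 5, 8.75% of those at 5 to 7.5, 6.38% at 7.5 to 10, 2.94% at 10 to 15 and 0.630% of the 6348 peaks above 15. The share without a counterpart thus fell from weak to strong calls, and 40 unmatched peaks were still above 15.

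At the edge of the rule, 2 unmatched peaks touched a 50 µL peak without overlapping it, next to the lincRNA F930017D23Rik and at the TSS of Exosc8, which encodes a subunit of the RNA exosome. The peaks at Tbpl1 and next to Gm13049 were 1 bp away and the peak at Nt5c2 was 2 bp away. Just inside the shared group, overlaps were 3 bp next to Ablim1, 6 bp next to Prdm15, 8 bp next to Zfp53, 9 bp at Trafd1 and 14 bp at Atxn1l. In all, 68 unmatched peaks lay under 100 bp from a 50 µL peak, and 148 shared peaks overlapped one by less than 100 bp.

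The fold enrichments also showed against which background a peak was called. MACS2 compares the pileup with the larger of a local and a genome-wide background, so peaks in surroundings with few reads share the genome-wide value and their fold enrichments come in equal steps. The step was read from the values and was 0.266, and the commonest value, 5.32 or 20 steps, was found in 47 unmatched and 247 shared peaks. Among unmatched peaks, 363 (30.2%, 27.6 to 32.9%) fell on these steps within 0.0005, against 10.7% (10.4 to 11.1%) of shared peaks. They had 13 to 37 steps (median 20). Unmatched peaks thus had values on the steps of the genome-wide background more often than shared peaks.

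The genomic class of a peak was not used by the rule. Unmatched peaks lay less often at promoters and more often in introns and between genes than shared peaks. Of 1203, 215 came within 1 kb of a TSS (17.9%, 15.7 to 20.2%), against 45.4% (44.7 to 46.0%) of shared peaks. A further 179 (14.9%) lay 1 to 3 kb from a TSS, against 9.63%. Introns held 385 (32.0%, 29.4 to 34.7%) against 21.5%, and distal intergenic sequence held 338 (28.1%, 25.6 to 30.7%) against 18.3%. The remaining unmatched peaks lay downstream of genes (39), in other exons (27) or in 3′ UTRs (20). In the full list of the other library, 26.1% of 89213 classed peaks came within 1 kb of a TSS. Introns held 33.3% of these peaks and distal intergenic sequence held 21.6%. Against that list, unmatched peaks were still less often at promoters and more often between genes, but not more often in introns. The promoter difference was smaller than that against shared peaks. The median distance to the nearest TSS of any annotated gene was 6849 bp (6035 to 7626 bp), against 1848 bp for shared peaks.

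**Figure D1:**
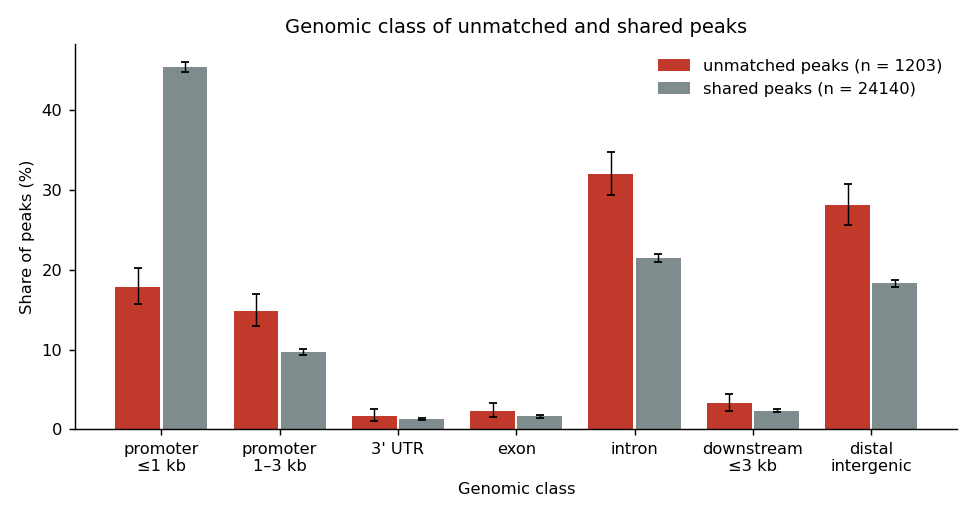
Share of unmatched peaks (red, n = 1203) and shared peaks (grey, n = 24140) of the library without gradient centrifugation in each genomic class, in percent, with exact 95% intervals. The promoter bar within 1 kb is lower for unmatched peaks (17.9% against 45.4%) and the intron and distal intergenic bars are higher; 5′ UTR, with no unmatched peak, is not drawn.

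Outside promoters the make-up of both groups was close. Of 988 unmatched peaks beyond 1 kb of a TSS, 39.0% (35.9 to 42.1%) lay in introns and 34.2% (31.3 to 37.3%) in distal intergenic sequence. For the 13189 shared peaks outside promoters these shares were 39.4% and 33.5%. The class difference between the groups was thus in the promoter share. The promoter share was lower for unmatched peaks within every range of −log10 q. From 2 to 5 it was 23.0% (17.4 to 29.5%) of unmatched against 36.7% of shared peaks, from 7.5 to 10 it was 16.7% against 36.8%, and above 15 it was 12.5% (4.19 to 26.8%) of 40 unmatched against 61.3% of 6308 shared peaks. With rising −log10 q the promoter share rose among shared peaks and not among unmatched peaks.

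The promoter peaks among the unmatched lay farther from the TSS than shared promoter peaks. Their median distance to the nearest TSS was 191 bp (114 to 266 bp), whereas the median of shared promoter peaks was 0 bp, so at least every other one of these reached a TSS. The distance was taken from the edge of the peak. Unmatched promoter peaks had a median width of 236 bp against 371 bp for shared promoter peaks, and the part of width in the distances was not tested. In 114 of the 215 (53.0%, 46.1 to 59.8%) the same 1 kb promoter window also held a 50 µL peak, and in 45 (20.9%) it held a shared peak. Their GC content was lower as well, with a median of 55.0% against 59.5%, and their summit windows held a median of 6 CpG against 12.

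The strongest unmatched peaks within 1 kb of a TSS of a protein-coding gene were at Trmt10c, a subunit of mitochondrial RNase P (−log10 q 16.5, fold enrichment 6.47), and Tent4b, a noncanonical poly(A) polymerase (16 and 7.42). They were followed by Pdzd9 (15.4), Ubash3b, which encodes a phosphatase that restrains T cell receptor signalling (14.4), Tprgl (14.0), Ermard (13.6), Cdkl1 (13.2), Atp1b3, a subunit of the sodium-potassium pump (13.1), Pcp4 (12.3) and Afp, the fetal liver protein alpha-fetoprotein (12). These belong to no single kind of gene. At Cdkl1 the nearest 50 µL peak began 24 bp away and at Pdzd9 124 bp away, whereas at Afp it was 7928 bp and at Ermard 104914 bp away. Protein-coding promoters with no 50 µL peak within 50 kb included those of Ermard, Kazn, Cpq and Slc25a13.

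The distance to the nearest 50 µL peak varied widely. Its median was 2243 bp (1969 to 2499 bp), with the 10th percentile at 183 bp and the 90th at 31983 bp. Of the 1203, 258 lay under 500 bp, 558 from 500 bp to 5 kb, 296 from 5 to 50 kb and 91 beyond 50 kb, of which 56 were beyond 100 kb. For shared peaks the distance to the next 50 µL peak that they did not overlap had a median of 2707 bp (2617 to 2792 bp) and a 90th percentile of 12866 bp. The typical distances were thus close, and the groups differed most in the far tail. The neighbouring 50 µL peak was itself matched by another peak without gradient centrifugation for 24.8% of unmatched and 24.9% of shared peaks. Within 50 kb of the summit there was a median of 9 peaks of the 50 µL list (8 to 10), against 11 around shared peaks, where at least 1 of them is the overlapping peak.

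**Figure D2:**
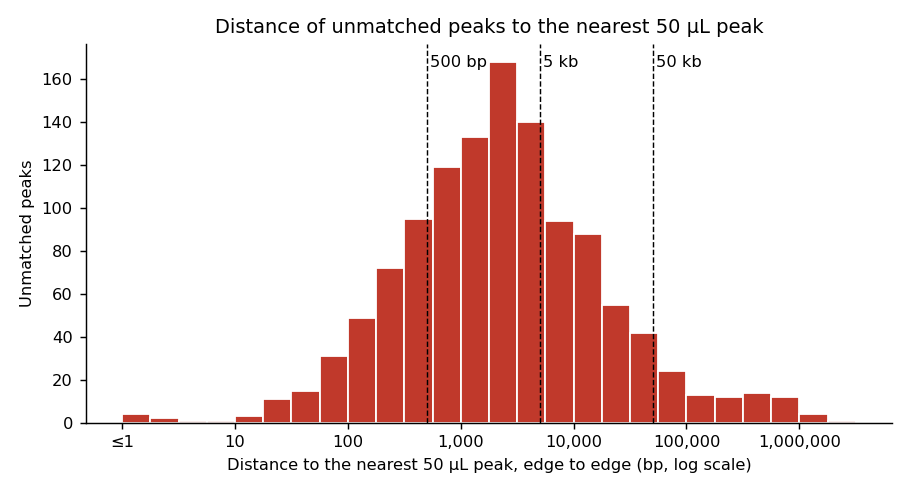
Number of unmatched peaks (vertical axis) by the edge-to-edge distance to the nearest 50 µL peak in bp (horizontal log axis, 4 bins per factor of 10), with dashed lines at 500 bp, 5 kb and 50 kb. Most of the 1203 peaks lie between 100 bp and 50 kb, around the median of 2243 bp.

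The 5 farthest unmatched peaks had fold enrichments on both sides of the median of all unmatched peaks, 4.69. The peak next to the small RNA gene Gm25133 on chromosome 14, 82175 bp from the nearest protein-coding TSS, was 2058922 bp from any 50 µL peak. The peak in an intron of Lrp1b, a large lipoprotein receptor-related gene, was 1239636 bp away, and those next to Gm44162, Gm5263 and Amd-ps4 were 1038392, 1010058 and 1001636 bp away. Their fold enrichments were 5.32, 4.76, 3.54, 3.83 and 4.97, respectively. The windows in Lrp1b, at Gm44162 and at Amd-ps4 were repeat-masked over 91.5%, 81.5% and 98.5% of their bases, and the summit 31-mers next to Gm25133 and in Lrp1b had 1 and 8 further copies.

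Several properties changed with this distance. The promoter share was 32.6% (26.9 to 38.6%) under 500 bp, 14.2% from 500 bp to 5 kb, 14.9% from 5 to 50 kb and 8.79% (3.87 to 16.6%) beyond 50 kb. Distal intergenic sequence rose from 17.4% (13.0 to 22.6%) to 52.7% (42.0 to 63.3%) of the peaks. The close unmatched peaks were thus nearest to shared peaks in class, and the isolated ones farthest. The share at the background floor rose from 10.9% under 500 bp to 13.3%, 62.5% and 83.5% (74.3 to 90.5%), and shared peaks, at 10.7%, were next to the closest group. The part of local read density in these shares was not tested.

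**Figure D3:**
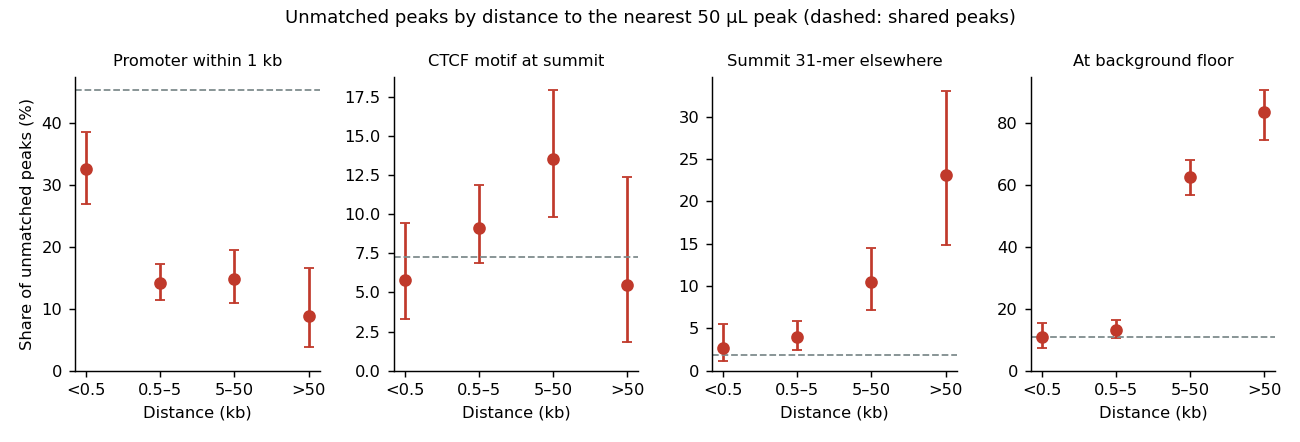
Share of unmatched peaks in percent (points, with exact 95% intervals) in 4 classes of distance to the nearest 50 µL peak in kb, for promoters, CTCF motifs, summit 31-mers with copies elsewhere and fold enrichments at the genome-wide background. Dashed lines give shared peaks. The promoter share falls from 32.6% to 8.79%, whereas the 31-mer and background shares rise to 23.1% and 83.5%.

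The nearest TSS belonged to a protein-coding gene for 766 unmatched peaks (63.7%, 60.9 to 66.4%) against 71.9% of shared peaks. It belonged to a pseudogene of any kind for 159 (13.2%, 11.4 to 15.3%) against 7.63%. Outside promoters the first of these shares was 60.8% (57.7 to 63.9%) against 60.1%, and the second was 15.1% (12.9 to 17.5%) against 12.5% (11.9 to 13.1%). The protein-coding share thus differed by less than its interval once promoters were left out. Among all 21911 protein-coding genes, 1075 (4.91%) were the nearest protein-coding gene of at least 1 unmatched peak. Of these, 973 had 1 such peak and 92 had 2, so the peaks were spread over many genes.

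Among the 10 peaks with the highest −log10 q, the peak at 2711 bp from the TSS of Gnptab (−log10 q 25.6, fold enrichment 8.14) was within the gene, which encodes the phosphotransferase that tags lysosomal enzymes with mannose 6-phosphate. The next was at the TSS of Gm13273 in the type I interferon cluster on chromosome 4 (24.7). The peak next to H2-M10.5 (22.8), 15997 bp from its TSS, lay among the nonclassical MHC class I genes on chromosome 17. Those next to Arid5b, which encodes a DNA-binding protein (22.8), Gm17267 on the X chromosome (22.4), Htatip2 (21.9) and in an intron of Adk (21.5) followed. Gm44355 (23.7), Gm37596 (22.7) and Gm22638 (19.6) are predicted genes. The distance of these 10 to a 50 µL peak ranged from 346 bp next to Arid5b to 200746 bp next to Gm44355. Strong unmatched peaks were thus found both close to and far from open regions of the other library.

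Protein-coding genes that were nearest to 3 or more unmatched peaks were few. Zfp386 was nearest to 16, all in the immunoglobulin heavy V segments on chromosome 12, which the annotation does not class as protein-coding. Gm17267, Rpia and Uqcrb were nearest to 4 each, and Picalm, Rplp1, Syne1, Anxa3, Celf4 and Itpr2 to 3 each. At Rpia, which encodes ribose-5-phosphate isomerase, a peak had its nearest TSS at Igkv12-46 (−log10 q 14.6) and another at Igkc (5.66) of the immunoglobulin kappa locus, and the other two lay 20875 bp (8.68) and 563 bp (9.51) from the TSS of Rpia. In Syne1, which encodes the nuclear envelope protein nesprin-1, 2 of the peaks were inside the gene, and at Itpr2, a calcium channel of the endoplasmic reticulum, 2 were inside it.

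Genes of cell type lists were set beside these figures (4.91% of all protein-coding genes, and 4.75% of all peaks). By gene, 20% of the B cell list and 20% of the myeloid list were nearest to an unmatched peak (each 7.71 to 38.6%). This share was 20% for neurons (5.73 to 43.7%) and 13.3% for T cells (3.76 to 30.7%). Endothelium and stroma had 5%, other tissues 3.70%, and the remaining lists 0%. Any peak was nearest to 86.7% of B cell, 56.7% of myeloid and 53.6% of all protein-coding genes. The share of all peaks nearest to a list's genes that were unmatched compares lists with many and few peaks. For 30 B cell genes, 7 of 119 peaks were unmatched (5.88%, 2.40 to 11.7%), at 6 genes. At Bach2, which encodes a transcriptional repressor of B cells, an intergenic peak had a −log10 q of 9.45 and an intronic peak 6.82. Intronic peaks lay in Syk, a kinase of B cell receptor signalling (7.69), and in Ebf1, the early B cell factor (6.44), and the other genes were Fcer2a, Cd24a and Irf4. For 30 T cell genes, 4 of 63 peaks were unmatched (6.35%, 1.76 to 15.5%), all distal intergenic, with Cd2, the cytokine receptor gene Il7r, Bcl11b and the costimulatory receptor gene Cd28 as nearest protein-coding genes. Neither of these peak shares stood apart from 4.75% beyond its interval. The intervals of the gene shares of the B cell, myeloid and neuron lists lay above 4.91%, but that figure also counts genes without any peak. Among genes nearest to any peak, the share nearest to an unmatched one was 9.15% for all protein-coding genes. It was 23.1% for the B cell, 19.0% for the T cell, 35.3% for the myeloid and 40% for the neuron list. No intervals were computed for these shares, so they set no list apart.

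The peaks of 30 myeloid genes were more often unmatched, 6 of 27 (22.2%, 8.62 to 42.3%). Of the B cell, T cell, NK cell and myeloid lists, only the myeloid list had unmatched peaks at promoters, among them that of Cebpa, a transcription factor of the myeloid lineage (543 bp from the TSS, fold enrichment 5.05). Away from promoters, the peaks were in the 3′ UTR of Cd163, the haemoglobin scavenger receptor of macrophages (6.12), next to Ly6c2 of inflammatory monocytes (4.93), and in distal intergenic sequence nearest to the lipopolysaccharide receptor gene Tlr4 (5.33) and to Maf (3.72). The nearest 50 µL peak was 42 bp from the Cebpa peak and 58002 bp from that near Tlr4.

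Among 20 genes of neurons and synapses, 4 of 17 peaks were unmatched (23.5%, 6.81 to 49.9%). They included peaks in Slc17a7, a vesicular glutamate transporter, in an intron of Dlgap1 and in an intron of Lrp1b. The windows in Slc17a7 and Lrp1b were repeat-masked over 97% and 91.5% of their bases. Of the remaining lists, endothelium and stroma had 1 of 27 (in Vwf, the von Willebrand factor gene, 1051 bp from a TSS) and genes of other tissues 1 of 10 (nearest Scgb1a1, inside Ahnak). No peak was unmatched among 38 at 29 housekeeping genes (interval 0 to 9.25%), 11 at erythroid and megakaryocyte genes, 9 at NK cell genes and 3 at developmental regulators. The counts behind all of these shares are small.

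Along the chromosomes, the share of unmatched peaks ranged from 3.74% (2.48 to 5.40%) of 721 peaks on chromosome 18 to 6.46% (5.05 to 8.12%) of 1052 on chromosome 12, and was 4.79% on the X chromosome. An unmatched peak was followed by another one along the chromosome in 88 of 1203 cases (7.32%, 5.91 to 8.93%), against 4.60% (4.34 to 4.87%) for shared peaks. The unmatched peaks formed 1041 single peaks, 63 pairs, 9 runs of 3, 1 run of 4 and 1 run of 5. They were thus mostly scattered, with a few local groups. Another unmatched peak lay within 10 kb of 44 (3.66%), within 50 kb of 150 (12.5%) and within 100 kb of 261 (21.7%). No such shares were computed for shared peaks, so the part of ordinary peak density in them was not tested. Among 1974 bins of 1 Mb with a peak, 832 held an unmatched one, of which 570 held 1 and 2 held 6 or more.

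The densest group was in the variable (V) segments of the immunoglobulin heavy chain locus, which B cells recombine to make antibody genes. From 113572927 to 116010093 on chromosome 12, 17 of 61 peaks were unmatched (27.9%, 17.1 to 40.8%), whereas outside this span the share was 4.69% (4.43 to 4.96%). The bin of 1 Mb from 115000001 held 14 of the 17, and segments such as Ighv1-55, Ighv1-66 and Ighv1-76 of the Ighv1 family were nearest to many of them. The 50 µL list was not sparse here, with 153 peaks in the span. The fold enrichment of the 17 ranged from 3.06 to 5.85 (median 4.44), and their distance to a 50 µL peak from 52 to 128183 bp (median 6551 bp). The most distant of the 17 from a 50 µL peak was that at Ighv2-6, which had Adam6a as its nearest protein-coding gene.

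**Figure D4:**
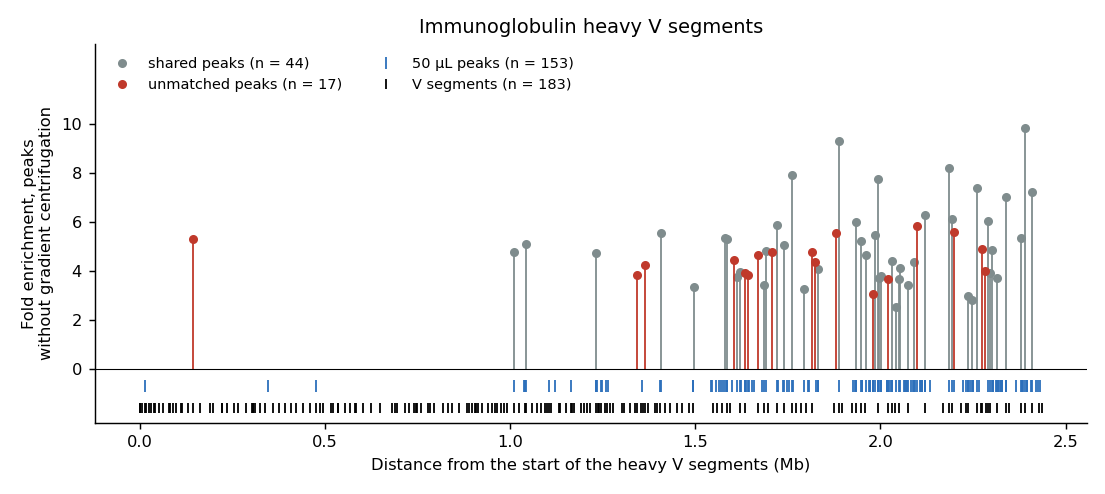
Fold enrichment (vertical axis) of the unmatched peaks (red, n = 17) and shared peaks (grey, n = 44) without gradient centrifugation across the immunoglobulin heavy V segments, by distance from the start of the span in Mb. Ticks below mark the 153 peaks of the 50 µL list (blue) and the 183 V segments (black). All but 1 of the unmatched peaks lie beyond 1.3 Mb, where shared and 50 µL peaks are dense too.

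Of the 17, 8 overlapped an annotated V segment, as did 26 of the 44 shared peaks there. The V segments are similar copies: the summit 31-mer occurred elsewhere for 6 of the 17 unmatched and 22 of the 44 shared peaks. In this span copies were thus not more frequent at unmatched than at shared peaks. The peak at Ighv1-56 was the strongest of the 17 (−log10 q 9.55, fold enrichment 4.67), lay 46 bp from its TSS and is shown on the plus strand with its 31-mer in capitals, which has 6 further copies. It was chosen after the values were seen.

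Ighv1-56, chr12:115242797-115242996: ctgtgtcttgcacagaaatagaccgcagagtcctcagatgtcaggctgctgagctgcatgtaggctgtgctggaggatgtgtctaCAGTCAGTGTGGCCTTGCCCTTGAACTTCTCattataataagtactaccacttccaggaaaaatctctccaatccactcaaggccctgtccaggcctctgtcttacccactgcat

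The other antigen receptor loci had few peaks. Among immunoglobulin kappa V segments 2 of 28 peaks were unmatched (7.14%, 0.877 to 23.5%), among T cell receptor alpha and delta V segments 2 of 18 (11.1%, 1.38 to 34.7%), and among T cell receptor beta V segments none of 4. Within their intervals none of these stood apart from 4.75%.

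The next bins by number of unmatched peaks were on chromosome 19 from 46000001, with 6 of 39 peaks, among them those next to Cuedc2, in Nfkb2, a subunit of NF-κB, and in Sufu, an inhibitor of Hedgehog signalling. On chromosome 12 from 69000001, 5 of 43 peaks were unmatched, among them those at Cdkl1, near Gm9887 and in and at Sos2, an exchange factor for Ras. On chromosome 8 from 25000001, 5 of 26 included those in Lsm1, near 5830408C22Rik and in and near Tacc1, and on chromosome 13 from 66000001, 5 of 10 included those near Gm48323, at Zfp640 and near Gm48412. The bins on chromosomes 19, 12 and 8 were rich in 50 µL peaks (112, 116 and 92), and the bin on chromosome 13 held 14. The X-linked group near Gm17267 had 4 peaks, of which that next to Gm17267 itself (fold enrichment 8.02) and that at Astx3 (8.51) were strong, with repeat-masked shares of 84% and 79%.

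Base composition differed by a few percentage points at the median. The median GC content of the 200 bp around the summit was 48.5% (47.5 to 49.0%) for unmatched and 51.5% (51.5 to 52.0%) for shared peaks, and outside promoters 47.0% against 48.0%. Repeats differed more. Of the unmatched windows, 112 (9.31%, 7.73 to 11.1%) were soft-masked over more than 50% of their bases, against 3.75% (3.51 to 4.00%) of shared windows, and outside promoters 10.4% against 5.79%. The summit 31-mer occurred elsewhere in the reference for 81 unmatched peaks (6.73%, 5.38 to 8.30%) and for 1.83% (1.67 to 2.01%) of shared peaks. Repeated sequence was thus more frequent among unmatched peaks, although 1122 of them had a unique summit, meaning no exact copy of the 31-mer elsewhere.

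Of the 81 peaks with copies elsewhere, 13 had 1 further copy, 35 had 2 to 9 and 33 had 10 or more. Their median distance to a 50 µL peak was 8870 bp (5609 to 14833 bp), against 2022 bp (1791 to 2266 bp) for unmatched peaks with a unique summit, and 40.7% of them were distal intergenic. The share with copies rose with distance, from 2.71% (1.10 to 5.51%) under 500 bp to 3.94%, 10.5% and 23.1% (14.9 to 33.1%) beyond 50 kb. Their median −log10 q, 7.32, was close to the 7.45 of those with a unique summit. The part of read placement in these differences was not tested.

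Short motifs of transcription factors were searched on both strands in the 200 bp around each summit and in windows of the same length 2 kb to each side. The motifs were CNAGGTGGC or CNAGGGGGC for CTCF, GAGGAAGT for PU.1, CCGGAAGT for other ETS factors, TGTGGTTT for RUNX, ATGCAAAT for the octamer of POU factors, TGANTCA for AP-1, AGATAAG for GATA factors, GGGCGGG for SP/KLF, CAGCTG for the E-box, TGACGTCA for CRE and CCAAT for NFY. The PU.1 and ETS motifs share their end but cannot match the same site. A match is a stretch of letters, not a bound site.

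The CTCF motif was the one most concentrated at unmatched summits. It was found in 111 of 1203 windows (9.23%, 7.65 to 11.0%) and in 24 of 2406 flanking windows (0.998%, 0.640 to 1.48%), a ratio of 9.25. Shared peaks had it in 7.25% (6.92 to 7.58%) of windows, and outside promoters the shares were 9.41% (7.66 to 11.4%) of unmatched and 9.01% (8.52 to 9.51%) of shared peaks. Unmatched peaks thus carried it at least as often as shared ones. It was in 5.00% of unmatched peaks with a −log10 q of 2 to 5 and in 9.0% to 11.4% of those in the stronger ranges. By distance to a 50 µL peak, it was in 5.81% under 500 bp, 9.14% from 500 bp to 5 kb, 13.5% (9.83 to 17.9%) from 5 to 50 kb and 5.49% (1.81 to 12.4%) of the 91 isolated peaks.

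**Figure D5:**
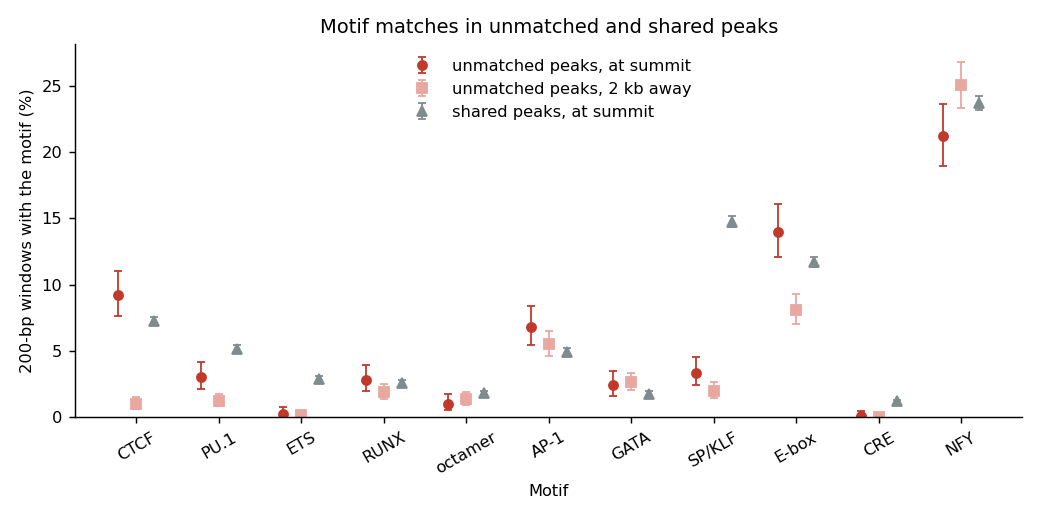
Share of 200-bp windows in percent with each of 11 motifs, for unmatched peaks at the summit (red circles), the same peaks 2 kb to each side (pale squares) and shared peaks at the summit (grey triangles), with exact 95% intervals. The CTCF motif is at 9.23% of unmatched summits against 0.998% of their flanks, and SP/KLF, ETS and CRE are far lower at unmatched than at shared summits.

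The motifs of CpG-rich promoters were scarce. SP/KLF was found in 40 unmatched windows (3.33%, 2.39 to 4.50%) against 14.8% (14.3 to 15.2%) of shared, ETS in 3 (0.249%, 0.0515 to 0.727%) against 2.87% (2.67 to 3.09%), and CRE in 1 (0.0831%) against 1.18%. The difference held among promoter peaks alone. At promoters SP/KLF was in 11.6% (7.67 to 16.7%) of 215 unmatched and 28.3% (27.5 to 29.2%) of shared peaks, and ETS in 1 of 215 (0.465%, 0.0118 to 2.56%) against 5.52% (5.10 to 5.97%).

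PU.1, a factor of myeloid cells and B cells, had its motif in 36 unmatched windows (2.99%, 2.1 to 4.12%) against 1.25% (0.843 to 1.78%) of their flanks and 5.14% (4.87 to 5.43%) of shared peaks. Outside promoters it was in 3.44% (2.39 to 4.78%) of unmatched and 6.82% (6.39 to 7.26%) of shared peaks. The octamer was in 12 unmatched windows (0.998%, 0.516 to 1.74%) against 1.33% of flanks and 1.80% of shared peaks. Both motifs were thus less frequent at unmatched than at shared summits, and the interval of the octamer reached into that of shared peaks.

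For the remaining motifs the groups were closer. RUNX was in 2.83% (1.97 to 3.93%) of unmatched and 2.58% of shared peaks, and GATA in 2.41% (1.62 to 3.44%) and 1.76%. AP-1 was in 6.82% (5.46 to 8.39%) of unmatched summits, 5.49% of their flanks and 4.93% (4.66 to 5.21%) of shared summits. The E-box was in 14.0% (12.1 to 16.1%) of unmatched summits and 8.10% (7.04 to 9.27%) of their flanks, and shared summits had it in 11.7%. NFY, a motif of only 5 letters, was in 21.2% (18.9 to 23.6%) of unmatched summits and in 25% of their flanks.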

How the data were processed

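Peaks of 2 scFFPE-ATAC libraries, without gradient centrifugation and with the 50 µL reaction, were analysed as lists on mm10. Per the methods, the authors mapped reads by BWA mem 0.7.17, sorted by samtools 1.17, deduplicated in-house, called peaks in each library by MACS2 2.1.2 (no model, shift 0, q-value 0.01) and dropped blacklisted regions by bedtools 2.30.0. The submitters' processing notes name BWA, SAMtools, mm10 and hg38. With shift 0 no offset for Tn5 insertion was applied at peak calling, and how far summits lie from insertion sites was not tested. CTCF motifs in the 200 bp windows lay a median of 50 bp from the summit in unmatched and 52 bp in shared peaks. The deposited lists give a display score, not used here, the fold enrichment as a ratio of summit pileup to background, −log10 p and −log10 q values from the authors' MACS2 run, and the summit offset.

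Overlap, distance, class (GENCODE M21; promoter to 3 kb, UTR, exon, intron, downstream, distal), soft-masking, 31-mers (primary RefSeq GRCm38 sequences) and motifs were computed with Python 3.11.15, numpy 2.4.6, pandas 2.3.3 and scipy 1.17.1, and checked on simulated data. The rule for the regions and the gene and motif lists were chosen with earlier results of these data known. Named genes are those nearest the 10 most significant, 5 farthest and 5 closest regions, nearest to 3 or more regions, at the 10 strongest protein-coding promoters, in the 5 fullest 1 Mb bins, or on a list (up to 4 per list away from promoters). Kazn, Cpq, Slc25a13, the Astx group, the fold enrichment steps, the antigen receptor loci, Ighv1-56 and the comparison of promoter windows were chosen after values were seen. The peak lists give no depth or cell numbers, and none were used here. Alternatives were a larger distance, other overlap rules, stricter −log10 q and fold enrichment, equal list lengths, autosomes, promoter definitions, annotation by summit and window size. Some items are not reported here.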

Additional observations from a re-analysis of the deposited data

How the results depend on the processing

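There was 1 library per condition, so no alternative carries a test, and a value was taken as moved when it left the main 95% interval (for the number of regions, when it changed by over 1.5 times). Of 57 alternatives, 41 did not move a value. The number of unmatched peaks, 1203, became 11596 when a counterpart had to overlap reciprocally by 50% and 8004 when the 50 µL list was reduced to as many of its most significant peaks as the other list holds, so it depends on how a counterpart is defined and on how many peaks the 50 µL list holds. Keeping only peaks over 500 bp from a 50 µL peak changed the promoter share to 13.9%, the distal intergenic share to 31% and the median distance to the nearest 50 µL peak to 3488 bp. A fold enrichment of at least 4 changed them to 15.3%, 30.9% and 2985 bp. The promoter share was 13.5% with a TSS within 500 bp, 25.9% within 2 kb and 14.0% with protein-coding TSS only. Windows of 400 bp gave a median GC content of 47.0%, and windows of 100 and 400 bp gave a CTCF motif share of 4.41% and 12.1% and a PU.1 or ETS share of 1.91% and 5.99%, against 3.24% at 200 bp. In each subset by distance, −log10 q, fold enrichment or autosomes, unmatched peaks kept a lower promoter share and a higher share of repeated summit 31-mers than shared peaks. These subsets are parts of the same 1203 peaks, so they are no independent check. For the reciprocal and equal-length rules only the number of peaks was computed. Whether the class, repeat and motif shares hold under those rules was not tested. Without the heavy V span, an alternative chosen after seeing the data, 6.91% of unmatched peaks were followed by another and 6.32% had a summit 31-mer elsewhere. No paired analysis was possible because the result comes from no test. The groups carry the same replicate number, 1, but the labels did not say whether they came from the same animal. Depth, which the peak lists do not give, limits which weak peaks either list could hold.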
